A study of Rattus norvegicus with 18 samples.

Results

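The natriuretic peptide genes Nppa (ENSRNOG00000008176) and Nppb (ENSRNOG00000008141) were followed across 18 libraries of rat heart RNA. They were picked out by their Ensembl identifiers, and both were found, as 2 of the 37262 genes listed. The libraries came from 3 groups of 6: WKY, the Wistar-Kyoto rat, which the labels call normal; SHR, the spontaneously hypertensive rat, given NS; and SHR given QDG. NS and QDG are not expanded in the labels, which also give no dose, duration, age, sex or heart chamber and do not say whether WKY received NS. If WKY went without NS, the difference between SHR and WKY holds both strain and NS, which then cannot be told apart. Nothing in the labels ties each library to its own animal, so a p-value here speaks for the spread among libraries, part of which may be technical.

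Nppa encodes the precursor of atrial natriuretic peptide (ANP) and Nppb that of B-type natriuretic peptide (BNP). Heart muscle cells release both hormones when the wall is stretched. They bind a receptor that makes cyclic GMP, and so lower blood pressure by promoting salt excretion and relaxing vessels. In the healthy adult heart Nppa is mostly an atrial transcript, while pressure load and hypertrophy raise both genes in the ventricle, which is why they are read as markers of cardiac stress. In the RefSeq annotation of GRCr8 they are neighbours on chromosome 5 of the rat, on the same strand, with Nppb first and 0 other genes starting between them.

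The bases just upstream of each gene are shown because both genes were higher in the same groups. They are RefSeq sequence of the reference strain in build GRCr8, not of SHR or WKY, and are given 5′ to 3′ on the + strand. Capitals mark matches, on either strand, to GATAA (the core bound by GATA factors), AAGTG (bound by NKX2-5), CATTCC (the MCAT element) and TATAAA (the TATA box). The stretches lie at chr5:163711934-163712183 (Nppa, 250 bases) and chr5:163699758-163699954 (Nppb, 197 bases, ending where the outermost RefSeq model of the gene begins).
Nppa: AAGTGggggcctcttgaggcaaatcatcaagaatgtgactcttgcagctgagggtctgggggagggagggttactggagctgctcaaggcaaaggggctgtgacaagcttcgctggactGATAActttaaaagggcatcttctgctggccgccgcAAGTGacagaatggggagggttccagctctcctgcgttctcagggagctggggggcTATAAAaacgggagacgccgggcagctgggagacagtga
Nppb: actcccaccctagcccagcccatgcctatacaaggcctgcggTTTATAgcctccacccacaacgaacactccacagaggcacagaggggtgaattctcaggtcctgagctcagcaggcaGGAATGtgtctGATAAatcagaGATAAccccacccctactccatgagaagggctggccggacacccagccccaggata

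Over the 250 bases before the start of transcription in the RefSeq table, GATAA occurred once for Nppa and 3 times for Nppb, the last of these running past the end of the stretch shown. It occurred in 23.2% of the windows of the same length of 27457 rat genes. For Nppb the last 53 bases of the window lie inside the outermost RefSeq model of the gene. The Nppb counts and distances therefore depend on which start is used. AAGTG was found 2 times for Nppa and 0 times for Nppb (40.6% of windows), and the copy 95 bases before the Nppa start overlaps an E-box (CANNTG). E-boxes were found 3 times for Nppa and 0 times for Nppb, and in 65.2% of windows. CATTCC was found 1 time, for Nppb, where it lies just upstream of a pair of GATAA matches (11.8% of windows). TATAAA was found once for each gene (13.1% of windows), 39 bases before the start of Nppa and, on the opposite strand, 208 bases before that of Nppb. GGTGTG (T-box factors, 15.3% of windows), TGANTCA (AP-1, 6.36%), TGACGTCA (CRE, 1.70%), the CArG box of serum response factor (1.50%) and the MEF2 box (1.74%) were not matched in either window. The search allowed no mismatch, so a site that departs from these forms by a base, such as a near CArG box, would have been missed. A match here is a description of letters and not a measured binding site.

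The deposited values were read as FPKM (sequenced fragments per unit of gene length and of library size), so levels of the 2 genes can be set side by side per length. Totals ranged from 598626 to 676288 FPKM, and relative depth, estimated from how low values step, from 0.880 to 1.09 of WKY replicate 1; absolute depth is unknown. Relative depth overlapped between groups (0.880 to 1.00 in WKY, 0.957 to 1.09 in SHR, 0.901 to 0.989 in QDG). The most abundant gene took 16.0% to 21.1% of all FPKM in WKY, 12.8% to 14.9% in SHR and 12.8% to 14.0% in QDG. WKY replicate 5 stood apart from its group, with 52 tested genes at least 2-fold above every other WKY library, against 3 to 6 in the others. Of the 52 genes, 23 had a mean of 100 FPKM or more, against 0 or 1 such genes in the other WKY libraries. The files do not pair identifiers with names, and the reference held 0 Ensembl identifiers. Markers of heart muscle, of atrium or ventricle and of other cell types therefore could not be looked up to check the tissue, nor could the receptors, processing enzymes, cyclic GMP genes and other stress markers of the same pathway.

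Nppa was uneven in WKY and several times higher in SHR. The 6 WKY libraries stood, in order of replicate, at 34.8, 114, 36.6, 161, 65.9 and 23.4 FPKM. The 6 SHR libraries stood at 347, 389, 189, 273, 1234 and 461 FPKM. Every SHR library lay above every WKY library, although the lowest SHR value (replicate 3) was close to the highest WKY value (replicate 4). SHR replicate 5 was far above the other SHR libraries.

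Nppb showed the same order with far tighter groups. In WKY it stood at 91.3, 82.5, 96.1, 113, 166 and 64.3 FPKM, in order of replicate. In SHR it stood at 366, 376, 317, 396, 404 and 478 FPKM. The groups did not overlap, and the lowest SHR value was well above the highest WKY value, that of replicate 5. SHR replicate 5, which stood apart for Nppa, lay within the range of the other SHR libraries for Nppb.

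QDG-treated SHR remained on the SHR side for both genes. Nppa was at 414, 139, 350, 449, 256 and 342 FPKM, so 5 of 6 libraries lay above all WKY libraries and replicate 2 lay within the WKY range. All of these values but that of replicate 2 lay within the SHR range. Nppb was at 247, 196, 307, 257, 424 and 281 FPKM, above all WKY libraries in 6 of 6. For Nppb 5 of the 6 treated libraries lay below the lowest SHR library, and replicate 5 lay among the SHR values.

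**Figure D1:**
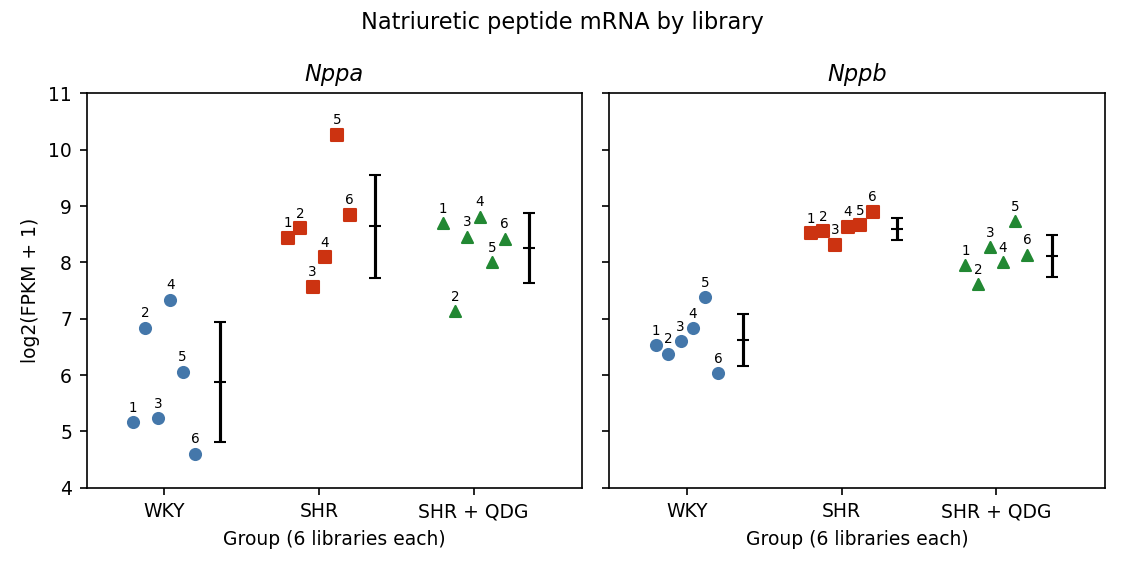
Level of Nppa (left) and Nppb (right) as log2(FPKM + 1) in each library, with the replicate number above each point and, to the right of each group, the mean and SD of 6 libraries. SHR libraries lie above all WKY libraries for both genes, and QDG-treated libraries overlap WKY for Nppa in replicate 2.

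The first comparison asked how the genes differed between the hypertensive and the normotensive strain. Nppa, the ANP precursor, averaged 72.6 ± 54.2 FPKM in the WKY libraries and 482 ± 380 in those of SHR (SD, n = 6 per group). The difference in log2(FPKM + 1) was 2.77 (SE 0.50, 95% CI 1.70 to 3.83), or 6.80-fold on that scale, with a limma adjusted p of 0.000708 over all genes tested. Nppb, the BNP precursor, averaged 102 ± 35.3 FPKM in the WKY libraries and 389 ± 52.9 in those of SHR (SD, n = 6 per group). Its difference was 1.97 (SE 0.19, 95% CI 1.56 to 2.38), or 3.92-fold, with a limma adjusted p of 6.66e-07. Two-sided exact permutation tests on FPKM gave p = 0.00216 for each gene, the smallest value that 6 against 6 libraries allow.

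Both genes rose, in a comparison where 12.2% of 17397 tested genes were called higher in SHR and 24.8% were called in either direction. Complete separation of the groups with SHR higher was seen in 6.41% of tested genes. The size of the difference was less common: 13 tested genes had a larger positive difference than Nppa and 27 a larger one than Nppb, against a median absolute difference of 0.14 over all tested genes. These counts and the median are on log2(FPKM + 1), where the added 1 shrinks differences of weakly expressed genes. Nppa and Nppb are little affected, so weaker genes with a larger fold in FPKM could rank below them. Such genes were not counted. By p-value the order of the pair turned around, with Nppb ranking 263 and Nppa 1316 of 17397, since the Nppa difference carried an SE of 0.50 and the Nppb difference one of 0.19. In bulk tissue, more cells making a transcript and more transcript per cell cannot be told apart.

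Without SHR replicate 5 the Nppa difference was 2.44 (limma adjusted p = 0.00136), and without WKY replicate 5, the library of lowest relative depth and the highest Nppb in WKY, the Nppb difference was 2.12 (limma adjusted p = 6.64e-08) and that of Nppa 2.80 (limma adjusted p = 0.00160). The share of the most abundant gene also differed between the strains. After that gene and the rest of the 10 most abundant were dropped and the libraries rescaled, the differences were 2.75 for Nppa and 1.96 for Nppb.

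The second comparison asked what QDG changed in SHR. Neither gene passed the test over all genes, where 0.293% of genes were called in either direction. Nppa averaged 325 ± 113 FPKM after QDG (SD, n = 6), with a difference from SHR of -0.39 (SE 0.50, 95% CI -1.45 to 0.68, limma adjusted p = 0.850; two-sided exact permutation p = 0.465). The interval of the Nppa difference, from 0.365-fold to 1.60-fold, holds both a fall to well under the SHR level and a rise. Much of the gap in means came with SHR replicate 5: the Nppa medians were 368 FPKM in SHR and 346 in QDG, and without that library the difference was -0.06 (limma adjusted p = 0.979). Other libraries moved the Nppa difference too: it was -0.16 without QDG replicate 2 and -0.60 without SHR replicate 3.

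Nppb averaged 285 ± 77.4 FPKM after QDG (SD, n = 6) against 389 ± 52.9 in SHR. The difference was -0.48 (SE 0.19, 95% CI -0.89 to -0.07, unadjusted), or 0.718-fold, with an unadjusted limma p of 0.0244 and an adjusted p of 0.390. The two-sided exact permutation test on FPKM gave p = 0.0260, also unadjusted. At an unadjusted limma p under 0.05 stood 10.4% of all tested genes, and 3.40% with QDG lower. The adjusted p for Nppb was between 0.212 and 0.569 in all 29 alternative settings, and its direction was downward in each. Several of these settings could change only the p-value and not the difference.

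**Figure D2:**
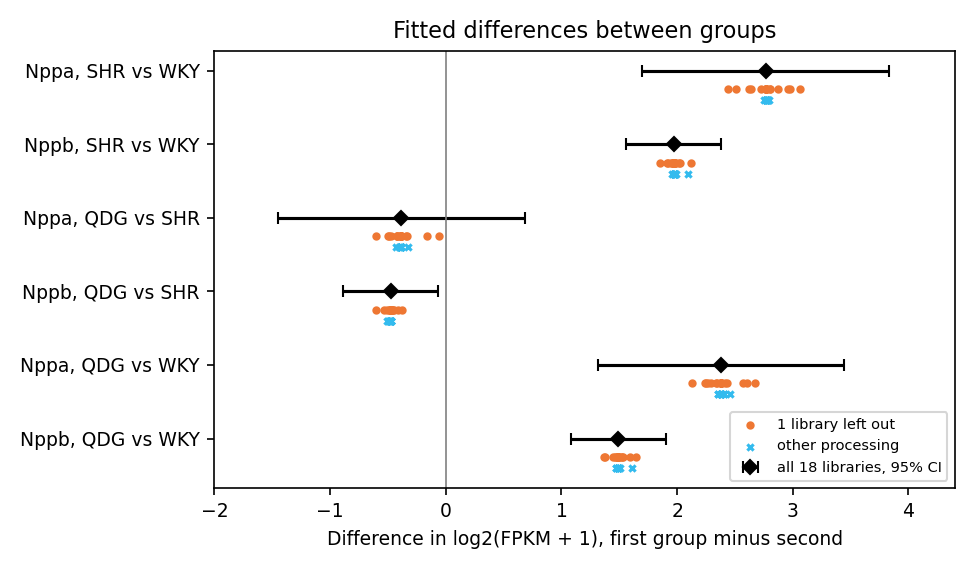
Fitted difference in log2(FPKM + 1) between groups, first group minus second, for each gene and comparison, with the 95% confidence interval (black), the fits that leave out 1 library (orange) and the other processing settings (blue). The differences from WKY lie right of 0 in every setting; of those between QDG and SHR, the Nppa interval spans 0 and the Nppb interval ends at -0.07.

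The third comparison set QDG-treated SHR against WKY and shares its libraries with the others, so it adds no independent evidence. Nppa was higher by 2.38 (SE 0.50, limma adjusted p = 0.00264; exact permutation p = 0.00433) and Nppb by 1.49 (SE 0.19, limma adjusted p = 1.83e-05; exact permutation p = 0.00216), where 11.7% of tested genes were called higher in QDG. Both genes thus remained above WKY after treatment. Complete separation with QDG higher was seen in 5.83% of tested genes and held for Nppb but not for Nppa, because of QDG replicate 2.

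The balance between the hormones was read as the ratio of Nppb to Nppa FPKM. In WKY the ratio was 2.62, 2.63, 2.52 and 2.75 in replicates 1, 3, 5 and 6, but 0.725 and 0.705 in replicates 2 and 4. The libraries with low ratios were those with the highest Nppa in WKY. Nppa is the divisor of the ratio, so the ratio and Nppa are not independent. In SHR the ratio ranged from 0.327 (replicate 5) to 1.68 around a median of 1.05, and in QDG from 0.571 to 1.66 around a median of 0.850. Nppb was thus the more abundant transcript per length in 4 of 6 WKY, 4 of 6 SHR and 2 of 6 QDG libraries.

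The fold by which Nppa exceeded WKY in SHR was larger than that of Nppb, but this inequality did not pass its own test. The mean log2 ratio of Nppb to Nppa was 0.77 ± 0.97 in WKY, -0.04 ± 0.83 in SHR and -0.13 ± 0.63 in QDG (SD, n = 6 each). The difference was -0.81 between SHR and WKY (two-sided exact permutation p = 0.143, adjusted over 3 comparisons 0.214). It shrank to -0.50 without SHR replicate 5 and reached -1.06 without WKY replicate 4, with the test passed in neither case (exact permutation, adjusted p = 0.303 and 0.0779). Between QDG and WKY it was -0.90 (exact permutation p = 0.0866, adjusted 0.214), and between QDG and SHR -0.09 (exact permutation p = 0.818, adjusted 0.818). With this spread, a shift in the balance of the genes was neither shown nor bounded closely.

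**Figure D3:**
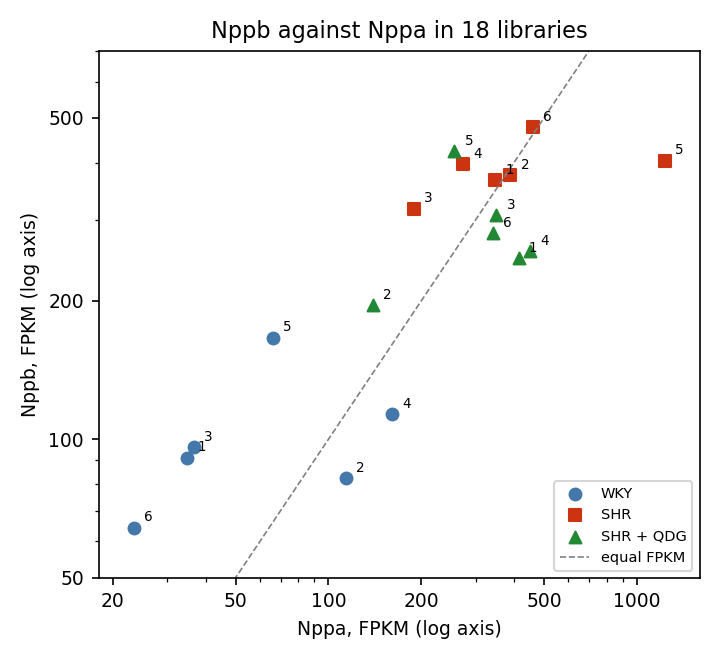
Nppb against Nppa in FPKM, both on log axes, with replicate numbers and a dashed line of equal FPKM. WKY libraries spread along the Nppa axis, with replicates 2 and 4 right of the line and the other 4 left of it, and SHR replicate 5 lies far to the right at a Nppb level like that of its group.

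Within groups, none of the 3 correlations of Nppa with Nppb passed its test. On the log2(FPKM + 1) scale Pearson's r was 0.44 in WKY (exact permutation p = 0.404, adjusted over 3 groups 0.563) and Spearman's rho 0.543 (exact permutation p = 0.297, adjusted 0.446). Leaving out WKY replicates 2 and 4, the libraries farthest from the median of Nppa, r over the remaining 4 was 1.00, whereas without replicate 6 alone it was 0.10 and without replicate 2 alone 0.64. In SHR r was 0.53 (exact permutation p = 0.264, adjusted 0.563), rho 0.771 (exact permutation p = 0.103, adjusted 0.308) and r without the 2 farthest libraries 0.56. Single SHR libraries moved r from 0.21 (without replicate 3) to 0.81 (without replicate 5). In QDG r was 0.27 (exact permutation p = 0.563, adjusted 0.563) and rho -0.03 (exact permutation p = 1.0, adjusted 1.0). Without QDG replicates 2 and 5 r was -0.81. The sign rests on replicate 2: without it alone r was -0.95, and without replicate 5 alone 0.75.

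The spread between libraries of a group set the genes apart from each other. Nppa varied 6.88-fold from the lowest to the highest WKY library, 6.53-fold in SHR and 3.22-fold in QDG, and Nppb 2.59-fold, 1.50-fold and 2.17-fold. Single libraries carried much of the Nppa range: it was 2.44-fold in SHR without replicate 5 and 1.76-fold in QDG without replicate 2, where that of Nppb was 1.71-fold. The pooled SD within groups of log2(FPKM + 1) was 0.88 for Nppa and 0.36 for Nppb, against a median of 0.15 over the 17397 tested genes. Of 506 tested genes with a mean log2 level of at least that of 100 FPKM, 3 had a larger within-group SD than Nppa and 46 a larger one than Nppb. In rank of abundance, Nppa moved from between 265 and 2308 in WKY to between 38 and 237 in SHR, and Nppb from between 319 and 791 to between 103 and 142. In QDG the ranks were 106 to 344 for Nppa and 120 to 232 for Nppb.

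**Figure D4:**
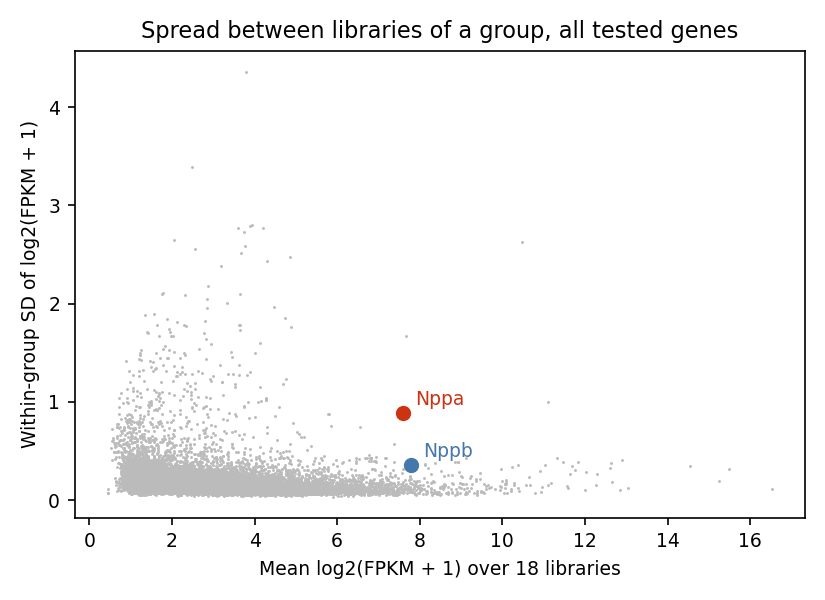
Within-group SD against mean level, both in log2(FPKM + 1), for 17397 tested genes (grey) and the natriuretic peptide genes (coloured). Nppa, with an SD of 0.88, lies above nearly all genes of its level, and Nppb, with 0.36, lies lower but above the median of 0.15.

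The genes most like each member were sought over 16668 tested genes with a mean of at least 1 FPKM. Over all 18 values, a measure that carries the group differences, Nppa correlated best with NONRATG005240.2 (r = 0.95), a NONCODE gene at 2.60, 10.3 and 9.38 FPKM on average in WKY, SHR and QDG. The next 4 genes had r from 0.92 to 0.94. Nppb correlated best with ENSRNOG00000000129 (r = 0.97), at 3.63, 7.88 and 7.14 FPKM, and the next 4 had r from 0.93 to 0.94. The pair correlated with each other at r = 0.85, which placed Nppb 84th in likeness to Nppa and Nppa 218th in likeness to Nppb.

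On deviations from group means, which leave the group differences out, the pair correlated at r = 0.39. By that measure 1532 genes were more like Nppa than Nppb was, and 1675 were more like Nppb than Nppa was. The gene nearest to Nppa was then ENSRNOG00000021536 (r = 0.83), which was lower in SHR (2.74 FPKM) than in WKY (4.12 FPKM). Next came NONRATG005240.2 (r = 0.82), the nearest gene over all 18 values, which was higher in SHR (10.3 FPKM) than in WKY (2.60 FPKM). The gene nearest to Nppb was ENSRNOG00000022681 (r = 0.83), at 4.48, 3.81 and 4.59 FPKM in WKY, SHR and QDG. Deviations of Nppb ran opposite to those of 70 genes at r below -0.8 and with those of 3 genes at r above 0.8, against 3 and 5 genes for Nppa. These correlations are over 18 libraries that share their scaling and are given as descriptions.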

How the data were processed

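Per the labels' protocols, Trizol was used for RNA, a NEBNext kit for rRNA depletion and a NEB Next Ultra kit for the libraries. The values, 1 per gene and library, are deposited without a named unit. They were read as FPKM normalized by the authors, since they are not whole, their totals differ between libraries and low values step as whole reads over gene length would. The submitters' processing notes name limma. Which aligner, counter, annotation, strand setting and build were used is not stated in the labels or files.

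The 17397 genes that reached 1 FPKM in 6 or more of 18 libraries entered the test on log2(FPKM + 1), in limma 3.58.1 (trend, robust; statmod 1.5.0, R 4.3.3), a mean per group and 3 contrasts. All tests are two-sided; limma p-values were adjusted (Benjamini-Hochberg) over all genes tested, at a threshold of 0.05. Single values were compared by exact permutation in Python 3.11.15. The fit was tested on simulated data. The members and lists were chosen with earlier results of these data known. Named genes are both members and, of the 5 genes most correlated with each by either measure, the first (the rule allowed 2), as identifiers have no names. The 18 gene lists (136 symbols) could not be matched. Alternatives changed the pseudocount, filter, scaling, limma settings, libraries used and a replicate block. No 2 libraries were identical.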

Additional observations from a re-analysis of the deposited data

Results flagged for a closer look

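Of 21 sets of 6 values looked at, 3 had a library far from the rest; about 1 in 20 would by chance. Nppa reached 1234 FPKM in SHR replicate 5, against 189 to 461 FPKM in the other SHR libraries. On the log2(FPKM + 1) scale its gap was 0.526 of the group's range, under the bound of 0.625, so the Nppa value was flagged on the linear scale only. That does not make it ordinary on the log2 scale, where it lay 1.42 above the next SHR library. The log2 ratio of Nppb to Nppa was -1.61 in the same library, against -0.05 to 0.75 in the others. In SHR replicate 5, 24 tested genes were at least 2-fold above every other SHR library, 3 of them at a mean of 100 FPKM or more, where the other SHR libraries had 4 to 13 such genes and 0 at that level. The number of genes at 0 was 6245 in QDG replicate 4 and 6520 to 6662 in the rest of that group.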

How the results depend on the processing

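For Nppa and Nppb, each of the 6 differences between groups kept its direction and its side of the threshold in 29 of 29 alternative settings. Not all of these settings could move a difference. It stayed as it was with a changed filter, without trend and robust fitting, and with a replicate block. The same held when only the compared groups were fitted or a library of the group not compared was left out. In those settings only the p-value could change. Against WKY, the Nppa difference ranged from 2.44 to 3.06 in SHR and from 2.13 to 2.67 in QDG, and that of Nppb from 1.85 to 2.12 and from 1.37 to 1.64. Between QDG and SHR the Nppa difference ranged from -0.60 to -0.06 and that of Nppb from -0.60 to -0.38. With a replicate block the differences were unchanged, with adjusted p of 0.00331 (Nppa) and 2.44e-06 (Nppb) for SHR against WKY and 0.822 and 0.251 for QDG against SHR. Same-numbered libraries showed little pairing (correlations of deviations from -0.06 to 0.19; 5 of 18 libraries correlated best with their own number). Replicate 5 had the highest correlation in each comparison (0.16 for SHR with WKY, 0.13 for QDG with SHR, 0.19 for QDG with WKY), and why was not tested. The count of genes called between QDG and SHR, 51, was 30 with no filter, 77 with median centring, 79 with quantile normalization and 104 with sample weights, and 29 to 69 with 1 library left out; the cause was not tested. The ratio of Nppb to Nppa between QDG and SHR, at -0.09, ran from -0.41 to 0.0656 with 1 library left out, turning sign when SHR replicate 3 (0.0656) or 4 (0.0237), or QDG replicate 1 (0.0293) or 4 (0.0425), was left out. With 1 library left out, that ratio ran from -1.06 to -0.50 for SHR against WKY and from -1.16 to -0.76 for QDG against WKY. The correlation of the genes ran from 0.10 to 0.64 within WKY, from 0.21 to 0.81 within SHR and from -0.95 (without replicate 2) to 0.75 (without replicate 5) within QDG. Ranges of level within groups with 1 library left out were added after seeing the data. Absolute depth is unknown, so no counting error can be given.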
